A study of Mus musculus with 18 samples.

Results

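Levels of 9 transcription factor genes that direct the trophoblast lineage, Elf5, Gata2, Gata3, Tfap2a, Hand1, Ascl2, Tead4, Ets2 and Elf3, were followed in mouse pluripotent stem cells kept by reprogramming factors or by inhibitors. The genes were chosen by name among 55469 genes, and all 9 were measured in all 18 libraries. OSKM-ESCs grew in N2B27 with doxycycline (DOX), which switches on a transgene for Oct4, Sox2, Klf4 and c-Myc (OSKM). 2iL-ESCs grew in N2B27 with the MEK inhibitor PD0325901, the GSK3 inhibitor CHIR99021 and LIF (2iL). Both came from a single ESC line, from a (C57BL/6 x 129S4/SvJae)F1 crossed to a (CBA/CaJ X C57BL/6J)F2, and were collected at days 18, 25 and 38 with 2 cultures per day and medium. OSKM-iPSCs (clones 1 and 3, passages 7 and 6) and 2iL-iPSCs (clones 3 and 6, passages 2 and 3) had been reprogrammed from MEF cells of the (C57BL/6 x 129S4/SvJae)F1 strain, mouse embryonic fibroblasts, of which 2 libraries at passage 4 were measured. All cells carried M2rtTA at Rosa26 and the OSKM cassette at Col1a1, and the ESC line also carried an Oct4-GFP reporter. The pluripotent cells were grown on MEF feeders treated with mitomycin. For routine culture of the 2iL-iPSCs, the sample labels name N2B27 with DOX and the methods of the study name 2iL without DOX. Passage and medium cannot be told apart in the iPSCs. Nothing states that the cultures of a day were grown separately, so the p-values measure the spread between these samples.

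The trophoblast is the first lineage to leave the embryo proper and forms the outer wall of the blastocyst and later most of the placenta. In the mouse embryo, low Hippo signalling lets YAP1 enter the nuclei of outer cells, where it joins TEAD4 and turns on Cdx2 and Gata3. ELF5, EOMES, TFAP2C, ETS2 and GATA factors then hold the trophoblast stem cell state, ASCL2 serves the spongiotrophoblast and HAND1 the giant cells. Mouse ESCs rarely enter this lineage on their own, and OCT4 is known to repress it.

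The level of a gene is given as FPKM, fragments mapped per kilobase of transcript relative to all mapped fragments, so that levels of different genes can be compared. Differences are on the scale of log2(FPKM + 1), OSKM minus 2iL, with the standard error (SE), and understate the change of genes with low levels. A gene entered a test if any library compared passed an FPKM of 1, and was called at a Benjamini-Hochberg adjusted p under 0.05 over all genes tested (limma). The depth in reads is unknown, because the files hold no counts. The libraries held 11308 to 12099 genes above this floor, and the deposited coverage per unit of FPKM was 2.99 to 3.62. In bulk RNA, a smaller share of cells with a transcript and less of it per cell cannot be told apart. The identity of the libraries was read from fixed marker lists. All 7 pluripotency markers were over the floor in all 16 ESC and iPSC libraries, and 1 of the 7 was over 1 in MEF cells. All 12 fibroblast markers were over 1 in MEF cells, with a summed FPKM of 1116 to 1272.

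The levels of the 9 genes fell into 3 tiers. Tead4 and Ets2 exceeded an FPKM of 1 in all 18 libraries, and Elf3 in the 16 pluripotent libraries. Ascl2 passed 1 in 11 libraries, Gata2 in 9, Gata3 in 4, Tfap2a in 3 and Hand1 in 2. Elf5 passed it in none and peaked at 0.976 in OSKM-iPSC clone 1. The median over the 18 libraries ran from 20.5 for Elf3 and 11.0 for Tead4 to 0.0293 for Elf5, while that of Hand1 was 0.

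**Figure D1:**
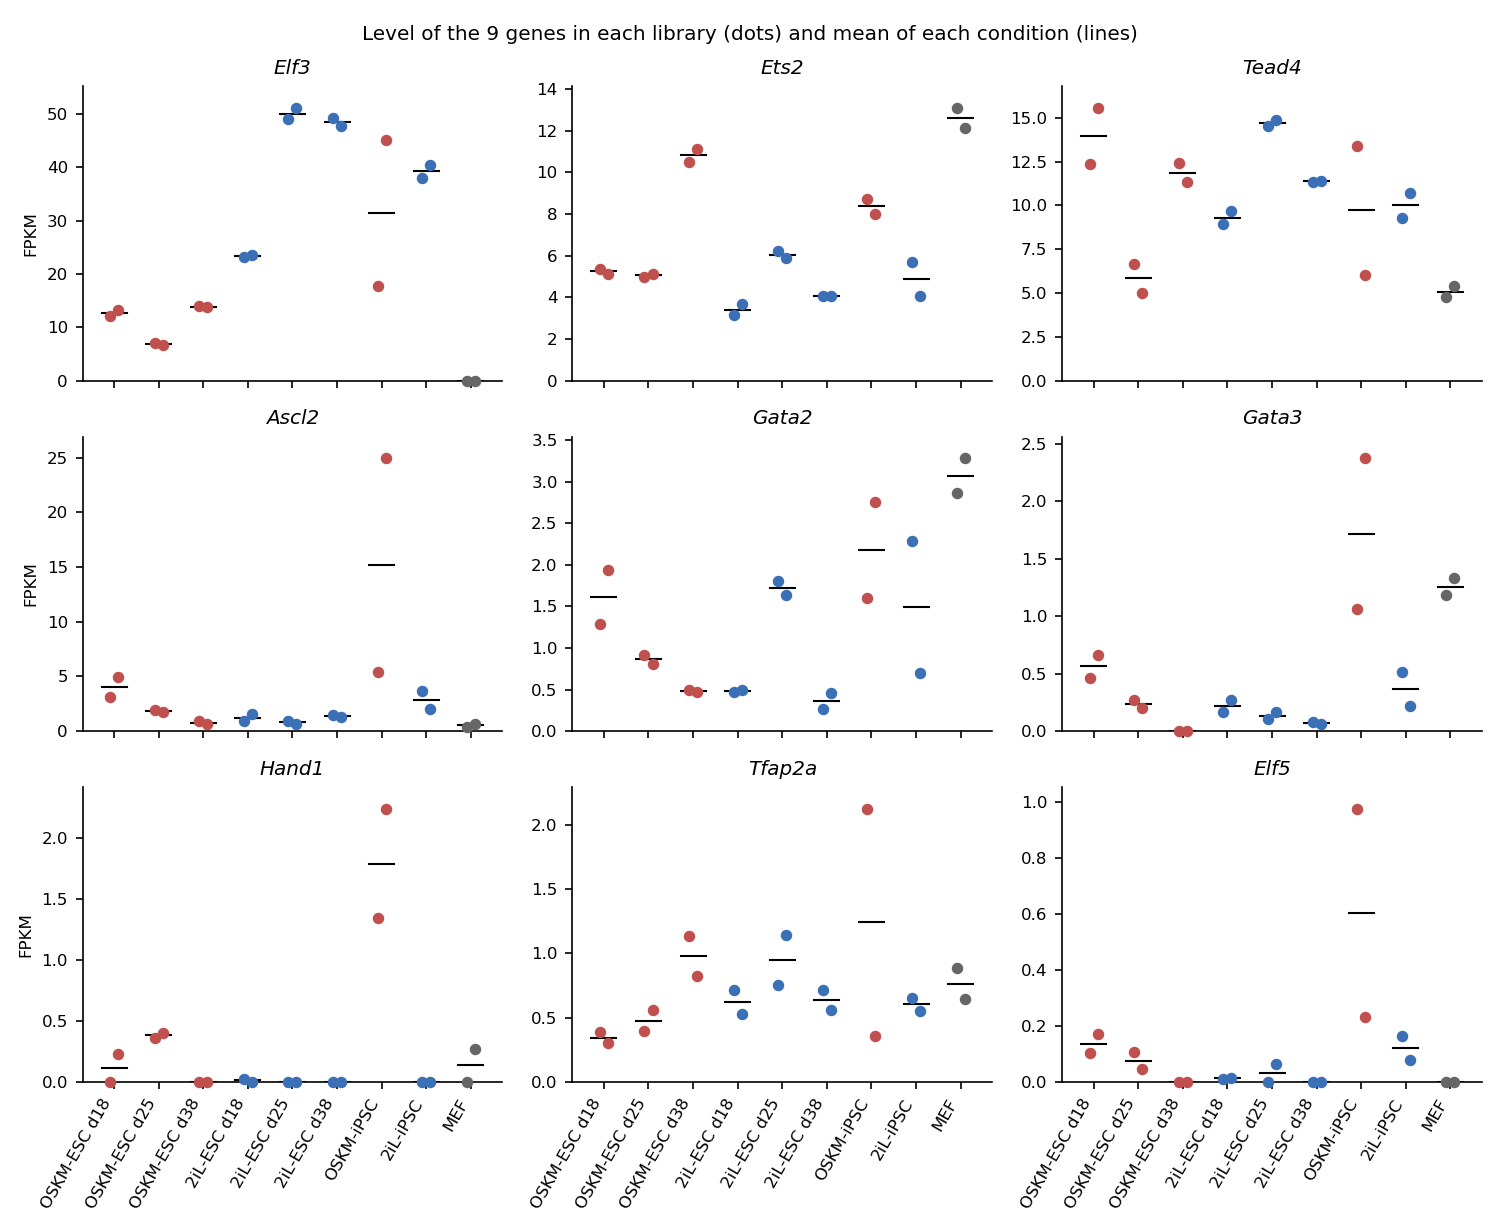
Each panel plots the FPKM of 1 gene (linear axis from 0) in each library, with 2 dots and a line for the mean of each of the 9 conditions; OSKM cells are red, 2iL cells blue and MEF cells grey. Elf3 is higher in every blue ESC library than in every red one, and OSKM-iPSC clone 3 is the right-hand dot at 25.0 in the panel of Ascl2.

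Promoter windows from RefSeq (GRCm38.p6) were at hand for 7 of the 9 genes, as 10 windows of 250 bases before a start. They were searched on both strands for short letter strings bound by the transgene factors and by the families of the regulators. Those of Elf3 and Ascl2 are shown because these genes had the largest differences between OSKM and 2iL cells in the ESCs and in the iPSCs. Only bases before both the RefSeq and the GENCODE start are printed, 5′ to 3′ on the minus strand, with matches in capitals.
Elf3, chr1:135258569-135258722: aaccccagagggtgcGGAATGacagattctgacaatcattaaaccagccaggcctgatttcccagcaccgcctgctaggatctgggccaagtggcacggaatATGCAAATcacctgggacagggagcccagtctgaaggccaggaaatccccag
Ascl2, chr7:142969265-142969514: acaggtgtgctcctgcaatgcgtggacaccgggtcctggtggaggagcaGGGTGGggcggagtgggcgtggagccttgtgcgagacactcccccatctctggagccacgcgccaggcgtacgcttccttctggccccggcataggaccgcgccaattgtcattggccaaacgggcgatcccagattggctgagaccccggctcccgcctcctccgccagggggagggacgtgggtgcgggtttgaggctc
In the window of Elf3 the capitals mark GGAATG, the TEAD string, and the octamer ATGCAAAT, which OCT factors bind. The octamer lies 52 to 45 bases before the GENCODE start (135258568), and the RefSeq start is at 135258472. In that of Ascl2 they mark CCACCC, the KLF string, read on the opposite strand. Of 32841 windows of this length, 1.60% held the octamer, 12.6% the TEAD string and 28.1% the KLF string. Among the 10 windows of the regulators, 1 held the octamer (Elf3), 3 the TEAD string (Elf3, Elf5 and Gata2) and 4 the KLF string (Ascl2, Elf3, Elf5 and Gata3). The KLF string of Elf3 is not within its printed stretch. The ETS string CCGGAA was in 1 (Gata3) against 12% of all windows. The SOX string ACAAAG (16.5% of all windows), the MYC string CACGTG (6.02%) and the GATA string AGATAA (9.99%) were in none. None of these 7 strings overlapped another within the printed stretches. The matches are a description of letters and do not show binding.

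Elf3 (chromosome 1, 135253575 to 135258568, minus strand), an epithelial ETS factor of trophectoderm and other epithelia, showed the widest contrast between the media. In OSKM-ESCs it had an FPKM of 12.1 and 13.3 at day 18, 7.07 and 6.71 at day 25, and 14.0 and 13.7 at day 38. In 2iL-ESCs it had 23.3 and 23.5 at day 18, 49.0 and 51.2 at day 25, and 49.3 and 47.8 at day 38. All 6 OSKM-ESC libraries lay below all 6 2iL-ESC libraries. The OSKM-ESC mean was 0.274 times the 2iL-ESC mean, 11.1 ± 3.36 against 40.7 ± 13.4 (SD, n = 6 each, over days), a log2 difference of -1.76 ± 0.23 (SE) with an adjusted p of 4.7e-05 (limma). The ratio of means was 0.542 at day 18, 0.138 at day 25 and 0.286 at day 38. The gene was called lower on each day (log2 differences of -0.84, -2.69 and -1.74, adjusted p = 0.0015, 1e-04 and 2e-05, limma), and the difference varied with day (adjusted p of the interaction = 8.4e-06). An antisense gene, Gm26642, shares 162 exonic bases with Elf3, and the library kit does not keep strand. Its own FPKM reached at most 0.59.

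In iPSCs, the OSKM clones stood further apart in Elf3 than the media did. OSKM-iPSC clone 1 had 17.8 and clone 3 had 45.1, on either side of 38.0 and 40.5 in the 2iL-iPSC clones. The log2 difference of -0.45 ± 0.42 (SE) was not called (adjusted p = 0.49, limma). It became -1.10 (adjusted p = 0.037) without clone 3 and 0.20 (adjusted p = 0.49) without clone 1 of the OSKM-iPSCs. The difference in ESCs over days exceeded that in iPSCs by -1.30 ± 0.33 (SE, adjusted p = 0.023, limma, a fit of both cell types). Elf3 was listed at 0 in both MEF libraries.

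Ets2 (chromosome 16, 95702075 to 95721051, plus strand), an ETS factor needed for trophoblast stem cells, was at its highest in MEF cells, 13.1 and 12.1. OSKM-ESCs had 5.38 and 5.12 at day 18, 4.98 and 5.11 at day 25, and 10.5 and 11.1 at day 38. 2iL-ESCs had 3.14 and 3.67 at day 18, 6.22 and 5.87 at day 25, and 4.04 and 4.07 at day 38. The groups were apart at days 18 and 38 with OSKM-ESCs above, and at day 25 the 2iL-ESCs were the higher pair. At day 38 the OSKM-ESC mean was 2.67 times that of 2iL-ESCs (log2 difference 1.23 ± 0.08 SE, adjusted p = 0.00014, limma), and this held without any single library of that day (adjusted p of 0.007 to 0.011). At day 18 the log2 difference was 0.51 (adjusted p = 0.021) and at day 25 it was -0.22 (adjusted p = 0.14). The day 18 call was lost without any single library of that day (adjusted p of 0.079 to 0.15) and with quantile normalization (0.34, adjusted p = 0.068). The medium difference varied with day (adjusted p of the interaction = 0.00012, limma).

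Over all days, Ets2 was called higher in OSKM-ESCs, with a log2 difference of 0.50 ± 0.19 (SE, adjusted p = 0.037, limma). The call rested on days 18 and 38. It was lost without any single library of those days (adjusted p of 0.052 to 0.093), without day 18 (adjusted p = 0.14) and without day 38 (0.14 on the log2 scale, adjusted p = 0.51). In iPSCs, 8.72 and 8.01 in the OSKM clones lay above 5.68 and 4.06 in the 2iL clones, a log2 difference of 0.69 ± 0.23 (SE) that was not called (adjusted p = 0.12, limma).

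Ets2 was not alone in its rise at day 38. Cdx2, the trophectoderm factor downstream of TEAD4, stood at 26.3 and 24.5 in OSKM-ESCs of day 38 and at no more than 1.31 in any other library. T, a primitive streak and mesoderm factor, had 194 and 198 in these libraries, and Tbx6, a paraxial mesoderm factor, had 14.8 and 13.3. The 6 mesoderm and streak markers summed to 218 to 221 at day 38, against 16.8 to 54.0 in OSKM-ESCs of the other days and 6.33 to 9.43 in 2iL-ESCs. At day 38, 5 of 5 tested markers of that list were called higher in OSKM-ESCs, where 34.6% of all genes were. Cdx2 is also a factor of the posterior streak, and the part of mesoderm-like cells in the level of Ets2 was not tested. Tbx6 was chosen after its values were seen.

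Tead4 (chromosome 6, 128224288 to 128300823, minus strand), the partner of YAP1 at the start of the trophectoderm, was well expressed in all pluripotent cells. OSKM-ESCs had 12.3 and 15.6 at day 18, 6.64 and 5.02 at day 25, and 12.4 and 11.3 at day 38. 2iL-ESCs had 8.94 and 9.66 at day 18, 14.5 and 14.9 at day 25, and 11.3 and 11.4 at day 38. The order of the media turned between days 18 and 25, and at day 38 the 2iL-ESCs lay within the range of the OSKM-ESCs. Tead4 was called higher in OSKM-ESCs at day 18 (0.53 ± 0.14 SE, adjusted p = 0.024, limma) and lower at day 25 (-1.21 ± 0.14 SE, adjusted p = 0.0021). At day 38 the log2 difference of 0.06 ± 0.07 (SE, adjusted p = 0.54) turned to -0.05 with quantile normalization and to -0.01 without OSKM-ESC replicate 1. The day 18 call was lost without OSKM-ESC replicate 2 (adjusted p = 0.11) and without either 2iL-ESC replicate (adjusted p = 0.18 and 0.13), whereas the day 25 call held without each library (adjusted p of 0.0049 to 0.028). Over all days the log2 difference was -0.21 ± 0.23 (SE, adjusted p = 0.47, limma), and the medium difference varied with day (adjusted p of the interaction = 0.00032).

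The iPSC clones spanned much of the range of Tead4. OSKM-iPSC clone 1 had 13.4 and clone 3 had 6.05, around 9.27 and 10.7 in the 2iL-iPSC clones. The log2 difference of -0.12 ± 0.36 (SE) was not called (adjusted p = 0.84, limma) and was 0.39 without clone 3 of the OSKM-iPSCs. MEF cells had 4.77 and 5.40.

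Ascl2 (chromosome 7, 142966829 to 142969264, minus strand), the imprinted basic helix-loop-helix factor of the spongiotrophoblast, declined with days in OSKM-ESCs. Its levels there were 3.11 and 4.92 at day 18, 1.92 and 1.74 at day 25, and 0.887 and 0.659 at day 38. 2iL-ESCs had 0.896 and 1.52 at day 18, 0.936 and 0.661 at day 25, and 1.45 and 1.28 at day 38. OSKM-ESCs were the higher pair at days 18 and 25 and the lower pair at day 38. The change with day was called in OSKM-ESCs (adjusted p = 0.0044, limma) and not in 2iL-ESCs (adjusted p = 0.20), and the medium difference varied with day (adjusted p of the interaction = 0.0043). Ascl2 was called higher in OSKM-ESCs at day 18 (1.17 ± 0.23 SE, adjusted p = 0.0070, limma) and day 25 (0.66 ± 0.15 SE, adjusted p = 0.017), and lower at day 38 (-0.42 ± 0.13 SE, adjusted p = 0.038).

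These calls of Ascl2 leaned on the filter and on single libraries. The gene passed the floor only through OSKM-ESCs at day 25 and only through 2iL-ESCs at day 38, the higher group each time, and with no filter the adjusted p was 0.066 at day 18, 0.053 at day 25 and 0.073 at day 38 (limma). At day 18 it was not called without OSKM-ESC replicate 2 (adjusted p = 0.060, limma), 2iL-ESC replicate 1 (adjusted p = 0.10) or 2iL-ESC replicate 2 (adjusted p = 0.053). At day 25 the same held without OSKM-ESC replicate 1 (adjusted p = 0.056) and 2iL-ESC replicate 2 (adjusted p = 0.10). At day 38 it held without OSKM-ESC replicate 2 (adjusted p = 0.098), 2iL-ESC replicate 1 (adjusted p = 0.13) and 2iL-ESC replicate 2 (adjusted p = 0.080), with TPM (adjusted p = 0.051) and in a single fit of all conditions (adjusted p = 0.50, and 0.056 at day 18 and 0.27 at day 25). The direction did not turn in any of these. Over all days the log2 difference was 0.47 ± 0.23 (SE, adjusted p = 0.098, limma), and it was 0.92 (adjusted p = 0.0040) without day 38.

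The highest level of Ascl2 was that of OSKM-iPSC clone 3. Clone 3 had 25.0 and clone 1 had 5.44, against 3.68 and 2.01 in the 2iL-iPSC clones and 0.348 and 0.681 in MEF cells. Clone 3 was 4.58 times clone 1, the next highest library of all. Both OSKM clones lay above both 2iL clones, but the log2 difference of 1.79 ± 0.66 (SE) was not called (adjusted p = 0.15, limma). It was 2.79 (adjusted p = 0.033) without clone 1 and 0.78 (adjusted p = 0.22) without clone 3.

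Gata2 (chromosome 6, 88193891 to 88207032, plus strand) and Gata3 (chromosome 2, 9857078 to 9890034, minus strand) act together in trophoblast, and GATA2 also serves blood and endothelium. Gata2 had 1.29 and 1.94 at day 18, 0.920 and 0.805 at day 25, and 0.495 and 0.469 at day 38 in OSKM-ESCs. In 2iL-ESCs it had 0.469 and 0.490 at day 18, 1.81 and 1.63 at day 25, and 0.268 and 0.456 at day 38. OSKM-ESCs were the higher pair at day 18 and the lower at day 25. On each of these days Gata2 passed the floor only through the group where it was the higher, which bears on its call. The log2 differences were 0.81 ± 0.18 (SE, adjusted p = 0.011, limma) and -0.55 ± 0.14 (SE, adjusted p = 0.023), but with no filter the adjusted p was 0.050 at day 18 and 0.054 at day 25, and at day 25 it was 0.10 in a single fit of all conditions. Day 38 was not tested because no library passed 1. Both calls were lost without either 2iL-ESC library of the day (adjusted p of 0.089 and 0.082 at day 18, 0.12 and 0.083 at day 25). The medium difference varied with day (adjusted p of the interaction = 0.0017), and over all days it was 0.13 ± 0.19 (SE, adjusted p = 0.58, limma).

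Gata3 stayed under 1 in every ESC library and was not tested there. OSKM-ESCs had 0.463 and 0.661 at day 18, 0.266 and 0.203 at day 25, and were listed at 0 at day 38. 2iL-ESCs ranged from 0.0593 to 0.266. OSKM-iPSC clone 3 had 2.37 and clone 1 had 1.06, against 0.517 and 0.221 in the 2iL-iPSC clones and 1.18 and 1.33 in MEF cells. The iPSC groups did not overlap, with a log2 difference of 0.95 ± 0.36 (SE, adjusted p = 0.15, limma). Gata3 passed the floor in that comparison only through the OSKM clones. For Gata2, the OSKM-iPSC clones had 1.61 and 2.76, the 2iL-iPSC clones 2.29 and 0.701, and MEF cells 2.86 and 3.28. Its iPSC difference was 0.40 ± 0.41 (SE, adjusted p = 0.54) and turned to -0.07 without 2iL-iPSC clone 6.

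Hand1 (chromosome 11, 57828705 to 57832818, minus strand), the factor of trophoblast giant cells that also acts in heart and other mesoderm, was seen mainly in OSKM-iPSCs. Clone 1 had 1.34 and clone 3 had 2.24, while both 2iL-iPSC clones were listed at 0 and MEF cells had 0 and 0.271. In OSKM-ESCs it had 0 and 0.225 at day 18 and 0.359 and 0.401 at day 25, and was listed at 0 at day 38. Of the 2iL-ESC libraries, 5 of 6 were listed at 0 and the other had 0.0224. The gene passed the filter in iPSCs through the OSKM clones alone, and missed the threshold there (adjusted p = 0.052, limma). The adjusted p was 0.049 with a pseudocount of 0.1, 0.038 without the trend and 0.033 with a filter of 2 libraries. The log2 difference was 1.46 with all iPSC clones and ranged from 1.23 to 1.69 with 1 clone left out. Such a fit leaves 1 library in a group, so its p-value cannot decide the call.

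Tfap2a and Elf5 completed the low tier. Tfap2a (chromosome 13, 40715302 to 40738376, minus strand), an AP-2 factor of trophectoderm, surface ectoderm and neural crest, had 0.388 and 0.298 at day 18, 0.396 and 0.556 at day 25, and 1.14 and 0.824 at day 38 in OSKM-ESCs. The 2iL-ESCs had 0.712 and 0.529, 0.755 and 1.14, and 0.715 and 0.556 on these days. OSKM-ESCs were the lower pair at days 18 and 25 and the higher at day 38. No difference was called at day 25 or day 38, with day 18 not tested, or over all days (-0.13 ± 0.13 SE, adjusted p = 0.41, limma), while the difference between days in the effect of medium was (adjusted p of the interaction = 0.048). OSKM-iPSC clone 1 had 2.13, the highest of all, against 0.355 in clone 3, 0.654 and 0.552 in the 2iL-iPSC clones, and 0.886 and 0.643 in MEF cells (log2 difference in iPSCs 0.36 ± 0.46 SE, adjusted p = 0.62). Antisense genes share up to 380 exonic bases with Tfap2a, and the highest FPKM among them was 0.079.

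Elf5 (chromosome 2, 103411688 to 103450989, plus strand), the ETS factor that locks in the trophoblast stem cell fate and is kept silent by DNA methylation in ESCs, was not tested in any comparison. OSKM-ESCs had 0.104 and 0.169 at day 18 and 0.106 and 0.0439 at day 25, and were listed at 0 at day 38. Of the 2iL-ESC libraries, 3 of 6 were listed at 0 and the highest had 0.0625. OSKM-iPSC clone 1 had 0.976 and clone 3 had 0.231, the 2iL-iPSC clones had 0.162 and 0.0770, and MEF cells were listed at 0.

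The number of regulators called was read against that of all genes. Over all days, 6 of 9 were tested, with 1 higher in OSKM-ESCs (Ets2) where 29.5% of 14016 genes were, and 1 lower (Elf3) where 24.4% were. At day 18, 4 of 5 tested were higher (Gata2, Ascl2, Tead4 and Ets2; 25.7% of all genes) and 1 lower (Elf3; 17.7%). At day 25, 1 of 6 was higher (Ascl2; 20.7%) and 3 lower (Gata2, Tead4 and Elf3; 25.3%). At day 38, 1 of 5 was higher (Ets2; 34.6%) and 2 lower (Ascl2 and Elf3; 25.2%). Of these calls, Gata2 at days 18 and 25 and Ascl2 at days 25 and 38 passed the floor only through the higher group. With no filter on low values, 0 were called higher at day 18 (12.3% of all genes). The adjusted p was 0.050 for Gata2, 0.066 for Ascl2, 0.084 for Tead4 and 0.062 for Ets2 (limma). A change with day was called for 5 of 6 in OSKM-ESCs (38.6% of all genes) and for 4 of 6 in 2iL-ESCs (50.8%), and the medium difference varied with day for 6 of 6 (37.9%). Epithelial markers moved with the medium too, with a sum of 486 to 505 in OSKM-ESCs at day 18 and 138 to 150 at days 25 and 38, against 16.2 to 25.5 in 2iL-ESCs. Of this list, 7 of 7 tested were called higher in OSKM-ESCs at day 18, and its part in the levels of the regulators was not tested.

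**Figure D2:**
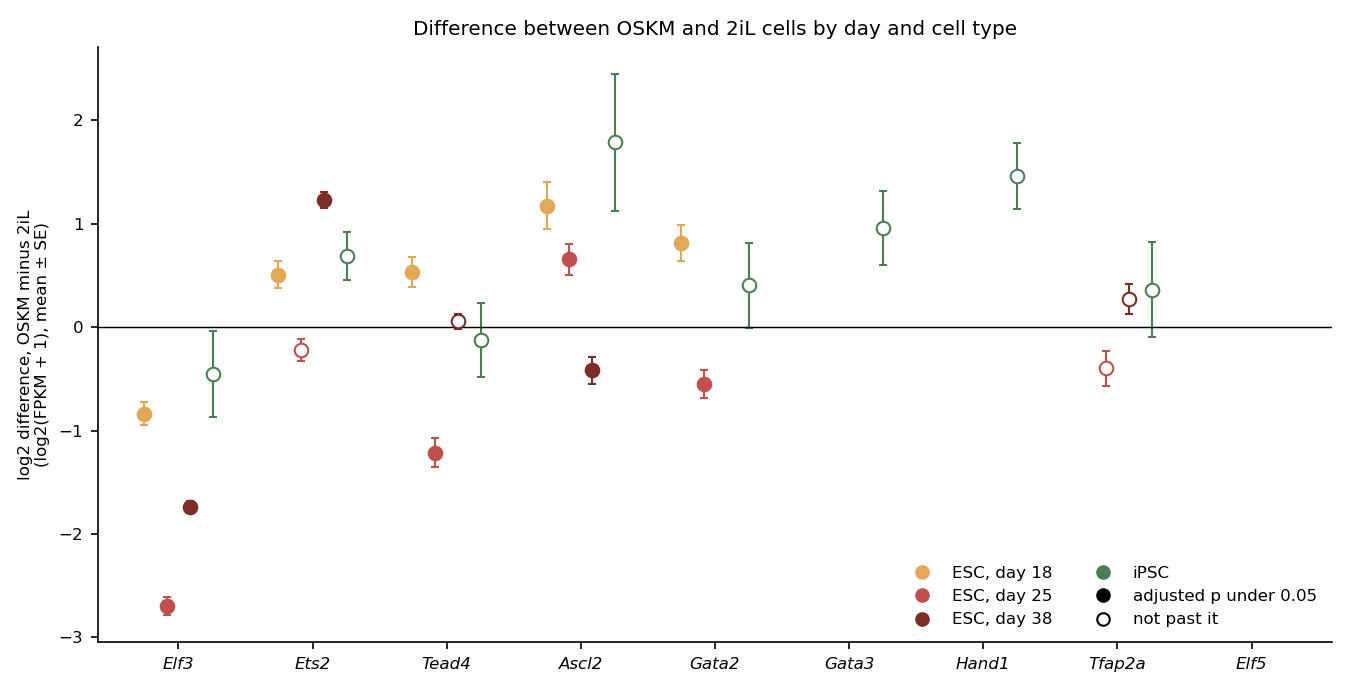
Points give the log2 difference (OSKM minus 2iL, on log2(FPKM + 1), with SE) of each gene tested at days 18, 25 and 38 in ESCs and in iPSCs, filled where the adjusted p was under 0.05; untested genes have no point. The points of Tead4 and Gata2 lie above 0 at day 18 and below it at day 25, those of Elf3 lie below 0 throughout, and no iPSC point is filled.

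In iPSCs, 8 of 9 genes were tested and 0 were called in either direction, where 5.00% of 13653 genes were called higher and 2.96% lower. At the cutoff of the study (fold of mean FPKM over 2, unadjusted p under 0.05), 3 were higher (Hand1, Ascl2 and Gata3), as were 11.5% of all genes. Hand1 and Gata3 passed the floor only through the OSKM-iPSC clones, where they are high, so their part in this count is no support. Of all calls at the adjusted threshold, 62.8% were higher, and 49.4% with quantile normalization. A single fit of all 9 conditions called 4 genes higher (these 3 and Ets2), and called 27.8% of all genes higher. The interaction of medium with cell type (ESC or iPSC) passed the threshold for 3 of 8 genes, Elf3, Hand1 and Gata3 (adjusted p = 0.023, 0.0016 and 0.038, limma), where 14.2% of all genes were called. Hand1 and Gata3 entered this fit only through the OSKM-iPSC clones, where they are high, and were not tested in ESCs alone, so that their calls are no support for a difference between the cell types. With no filter, 1 of the 3 calls remained by count. Without 2iL-iPSC clone 6, 1 of the 3 calls remained.

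Both iPSC groups were also set beside the same 2 MEF libraries. Against these, 3 of 8 tested genes were higher in OSKM-iPSCs (Hand1, Ascl2 and Elf3; 34.0% of all genes) and 1 was lower (Ets2; 26.4%). These 3 passed the floor only through the OSKM-iPSCs. In 2iL-iPSCs, 3 of 6 were higher (Ascl2, Tead4 and Elf3; 40.6%) and 2 lower (Gata3 and Ets2; 37.4%). Here Ascl2 and Elf3 passed it only through the 2iL-iPSCs and Gata3 only through MEF cells. For Ets2 the log2 difference was -0.54 ± 0.13 (SE) in OSKM-iPSCs and -1.23 ± 0.17 (SE) in 2iL-iPSCs (adjusted p = 0.023 and 0.0017, limma). For Ascl2 it was 3.10 ± 0.72 (SE) and 1.32 ± 0.26 (SE, adjusted p = 0.022 and 0.0067). Leaving out either MEF library leaves 1 in that group, so such fits cannot decide these calls. The median of all genes stood at 0.19 for OSKM-iPSCs and moved to 0.02 with median-ratio scaling.

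OSKM-iPSC clone 3 held the highest level among the 16 pluripotent libraries for 4 of the 8 regulators that passed 1 in any of them (Ascl2, Gata3, Hand1 and Gata2), where this clone held the highest level of 8.58% of 14621 genes. Among the 16 libraries, Gata3 and Hand1 passed 1 only in the OSKM-iPSC clones, so their part in this count is no support. Clone 3 was singled out after its values were seen, and it is 1 library. Some other genes of the trophoblast lists were high in the same clone, and others were not. It held the highest level for 3 of 5 differentiated trophoblast markers past the floor (Plac1, Rhox6 and Rhox9) and for 1 of 15 trophectoderm and trophoblast stem cell factors (Dlx3), 6.67%. Plac1 passed the floor only in the OSKM-iPSC clones and Dlx3 only in clone 3, so their part in these counts is no support. Klf5 was at its lowest of all libraries in clone 3, at 3.39, and Plac8, a placental gene, had 7.98 against 27.5 in clone 1. Plac1, a placental gene, had 13.1 there and 1.71 in clone 1, and at most 0.447 in any other library. Rhox6 and Rhox9, homeobox genes of placenta and germ cells, had 46.0 and 44.7, against at most 7.43 and 3.40 elsewhere. Dlx3, a homeobox factor of the placental labyrinth, had 4.53 against at most 0.585. Plac8 and these 4 were chosen after their values were seen and none of the 5 was called between the iPSC groups (adjusted p of 0.13 to 0.36, limma).

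Genes that define mature trophoblast were mostly listed at 0 in both OSKM-iPSC clones, as in the other libraries. Of the 20 differentiated trophoblast markers, 14 were listed at 0 in clone 3 and 13 in clone 1, including the prolactin family genes Prl3d1 and Prl3b1, Tpbpb, Ctsq and Synb. The 2iL-iPSC clones had 13 and 14 at 0, OSKM-ESCs 14 to 15, 2iL-ESCs 13 to 15 and MEF cells 11 to 13. The summed level of the list was 112 in clone 3, 40.4 in clone 1 and 12.4 to 13.3 in 2iL-iPSCs. Most of the sum in clone 3 came from Rhox6 and Rhox9 (46.0 and 44.7). Cdx2 and Eomes, which define trophoblast stem cells, had 0.277 and 1.34 in clone 3, against 0.264 to 0.853 for Cdx2 and 1.89 to 3.15 for Eomes in the other clones. Fibroblast markers were near absent from clone 3, with a summed level of 4.70 and Col1a2 at 0.130, whereas clone 1 had a sum of 75.0 and Col1a2 at 36.1. Clone 1 in turn had the highest Tfap2a and Elf5 and the highest Krt8 and Krt18, keratins of simple epithelium and trophectoderm, at 339 and 256. The 9 epithelial markers summed to 783 in clone 1, 231 in clone 3 and 39.0 to 51.6 in 2iL-iPSCs. Of these, 4 of 7 tested were called higher in OSKM-iPSCs, where 5.00% of all genes were. The part of fibroblast or epithelial cells in the levels of clone 1 was not tested.

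**Figure D3:**
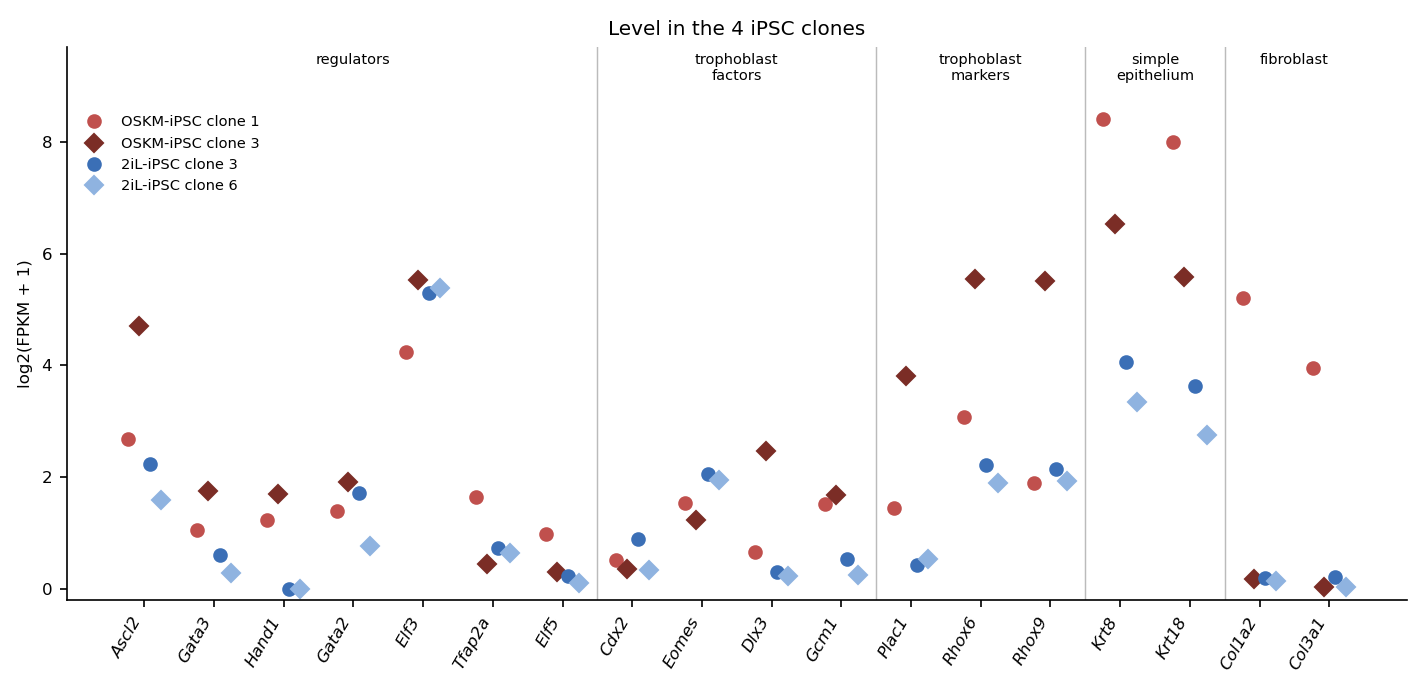
The vertical axis gives log2(FPKM + 1) of 18 genes in OSKM-iPSC clones 1 and 3 and 2iL-iPSC clones 3 and 6, grouped into trophoblast regulators, other trophoblast factors, trophoblast markers, keratins of simple epithelium and fibroblast genes. The dark red diamonds of OSKM-iPSC clone 3 are highest for Ascl2, Gata3, Hand1, Plac1, Rhox6, Rhox9 and Dlx3, while the red circles of clone 1 are highest for the keratins, Col1a2 and Col3a1.

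The genes whose levels ran most like those of the regulators were named by Pearson's r of log2(FPKM + 1) over the 16 pluripotent libraries, among 13781 genes past the floor in 2 or more of them. The libraries share media, days and a cell line, and r is given as a description. Gata3 and Ascl2 were each other's most similar gene (r = 0.972, and 0.927 without OSKM-iPSC clone 3). Next to Gata3 came Sowahb (0.949, and 0.905 without that clone) and 3830417A13Rik (0.943, and 0.901 without it). Next to Ascl2 came 3830417A13Rik (0.928, and 0.87 without it) and Fbp2 (0.925, and 0.781 without it). Hand1 was closest to Tnnt3 (0.966), Shisal1 (0.957) and Ackr4 (0.956), and all of these peaked in clone 3. Gata2 was closest to Megf11 (0.892), Slc37a2 (0.869) and Slc38a4 (0.861), which also peaked in clone 3. Elf3 ran with Mylip (0.958), Map2k1 (0.952), which encodes the MEK1 kinase, and Fam76a (0.949). Map2k1 ranged from 32.4 to 66.0. Ets2 ran with Zbtb5 (0.962), Trp53i11 (0.943) and Pdcd4 (0.939), Tead4 with Tes (0.897), Ddah2 (0.883) and Nkain4 (0.875), and Tfap2a with Plod1 (0.859), Fut8 (0.843) and Clcc1 (0.798).

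Other factors of trophectoderm and trophoblast stem cells moved in both directions. Of 16 listed, 14 were tested in ESCs over all days, with a median log2 difference of 0.02, against 0.03 over all genes tested. In OSKM-ESCs 3 were called higher (29.5% of all genes) and 4 lower (24.4%). Klf5, a factor shared by trophectoderm and naive ESCs, was lower, at 4.94 to 10.5 in OSKM-ESCs against 38.7 to 72.4 in 2iL-ESCs (-2.80 ± 0.17 SE, adjusted p = 8.2e-08, limma). Esrrb, another shared factor, was also lower (-2.51 ± 0.18 SE, adjusted p = 3.4e-07). Id2, an inhibitor of basic helix-loop-helix factors, was higher, at 6.01 to 12.7 against 0.516 to 2.61 (2.24 ± 0.23 SE, adjusted p = 6.8e-06). Cdx2 was called higher through day 38 (1.62 ± 0.59 SE, adjusted p = 0.036). In iPSCs, 2 of 13 were higher (Id2 and Arid3a; 5.00% of all genes) and 2 lower (Klf5 and Esrrb; 2.96%), with a median of -0.10 against 0.09 over all genes.

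Among the Hippo genes around Tead4, more were called higher than lower. In ESCs over all days, 8 of 20 were called higher and 2 lower, with a median of 0.29, where 29.5% of all genes were higher and 24.4% lower. At day 25, 6 of 19 were higher (20.7% of all genes) and 5 lower (25.3%), with a median of -0.04. Amot, which holds YAP1 in the cytoplasm, had 3.93 to 18.7 in OSKM-ESCs and 0.292 to 1.34 in 2iL-ESCs (2.50 ± 0.29 SE, adjusted p = 1.8e-05, limma). Its relative Amotl1 had 7.17 to 8.80 against 0.836 to 3.61 (1.57 ± 0.18 SE, adjusted p = 1.9e-05). Ccn1, a target of YAP1 and TEAD, had 26.5 to 46.3 against 8.53 to 11.7 (1.85 ± 0.14 SE, adjusted p = 6.2e-07). Yap1 itself had 38.4 to 60.4 against 35.9 to 49.1 and was not called (adjusted p = 0.061). In iPSCs, 3 of 20 were higher (Amotl1, Amotl2 and Tead3; 5.00% of all genes), 0 were lower (2.96%) and the median was 0.48. These genes are also high in MEF cells, where Amotl1 had 21.1 and 24.8 and Ccn1 had 315 and 363. Fibroblast markers moved the same way, with 8 of 9 tested called higher in OSKM-ESCs, a summed level of 17.6 to 28.5 against 3.46 to 5.72 in 2iL-ESCs and 1 or fewer markers at 0 in each OSKM-ESC library, and their part in the Hippo differences was not tested. In OSKM-iPSC clone 1, with a fibroblast sum of 75.0, Amot had 12.9, Amotl1 16.4 and Ccn1 46.0. Clone 3, with a sum of 4.70, had 2.56, 7.53 and 27.7, and the 2iL-iPSCs had at most 0.858, 1.95 and 15.2. Each clone is 1 library, and of these genes only Amotl1 was called in iPSCs. The part of fibroblasts in the iPSC levels was not tested either.

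**Figure D4:**
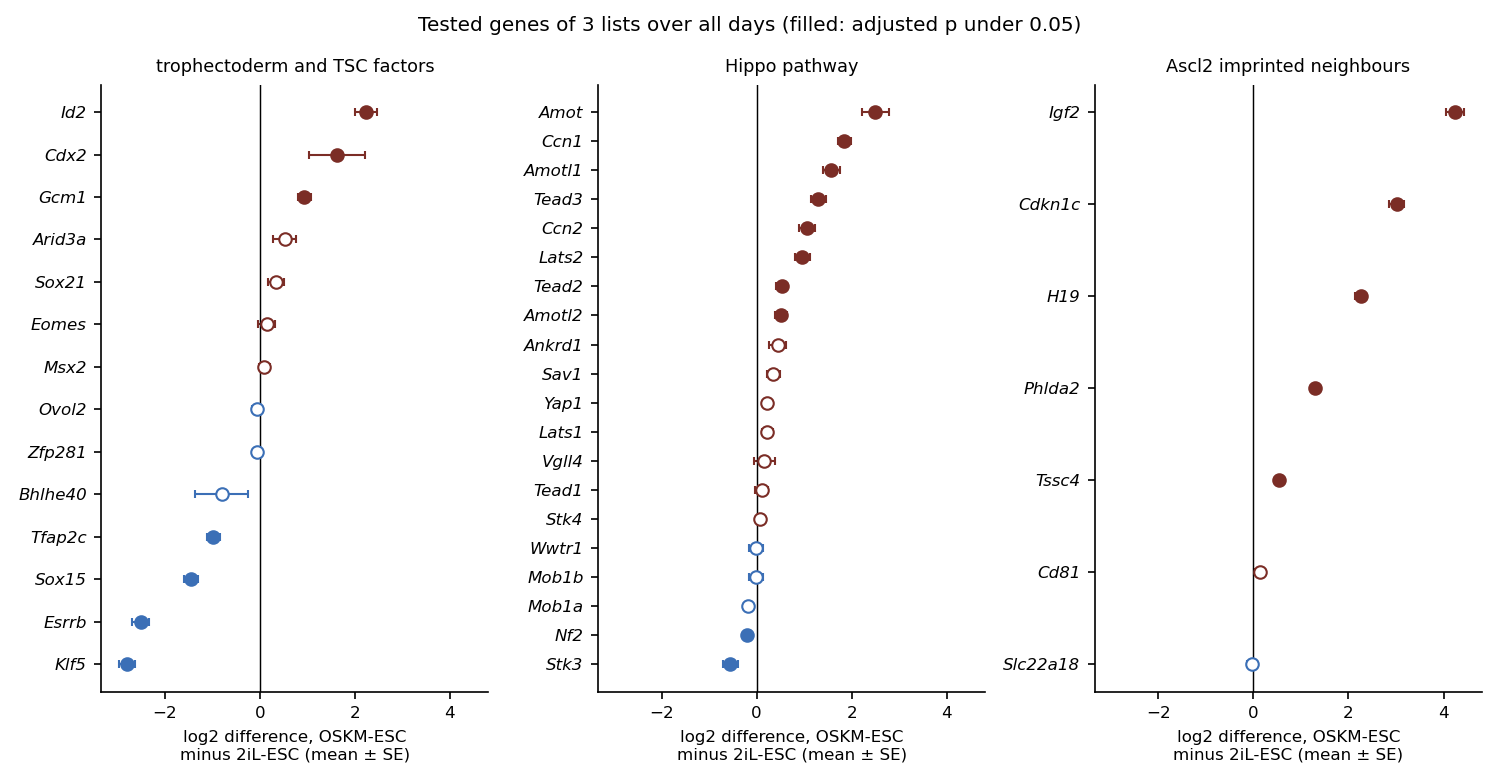
For 3 gene lists, points give the log2 difference of each tested gene in ESCs over all days (OSKM-ESC minus 2iL-ESC, log2(FPKM + 1), with SE), filled where the adjusted p was under 0.05. Trophectoderm and trophoblast stem cell (TSC) factors lie on both sides of 0, with Id2 and Klf5 at the ends, while 8 filled Hippo genes and 5 filled neighbours of Ascl2 lie above 0.

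Close relatives of the regulators differed in their own ways. Of 21 listed, 8 were tested in ESCs over all days, with a median of 0.19. There 3 were called higher (Ets1, Tead2 and Tead3; 29.5% of all genes) and 2 lower (Tfap2c and Elf4; 24.4%), counts not far from those shares. Tead3 had 4.57 to 7.15 in OSKM-ESCs and 0.718 to 2.49 in 2iL-ESCs (1.30 ± 0.16 SE, adjusted p = 3.5e-05, limma). Ets1 had 0.898 to 2.42 against 0 to 0.423 (1.03 ± 0.15 SE, adjusted p = 0.00011). Tfap2c, the AP-2 factor of both trophoblast and germ cells, had 13.2 to 18.9 against 20.6 to 48.1 (-0.98 ± 0.14 SE, adjusted p = 8.1e-05), far above the levels of Tfap2a. In iPSCs, 1 of 9 was called (Tead3, higher; 5.00% of all genes).

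Imprinted neighbours of Ascl2 on distal chromosome 7 were mostly higher in OSKM-ESCs. Over all days, 5 of 7 tested were called higher (Igf2, Cdkn1c, H19, Phlda2 and Tssc4; 29.5% of all genes) and 0 lower (24.4%), and the median was 1.30. Igf2, a fetal growth factor, had 14.5 to 41.1 in OSKM-ESCs, 0.0642 to 0.953 in 2iL-ESCs and 1123 and 1159 in MEF cells. Cdkn1c, a growth inhibitor, had 17.7 to 41.6 in OSKM-ESCs and 1.10 to 3.16 in 2iL-ESCs (3.01 ± 0.16 SE, adjusted p = 2.9e-08, limma). H19, a noncoding RNA, had 8.17 to 20.4 against 1.14 to 3.46 (2.25 ± 0.12 SE, adjusted p = 3.2e-08), and Phlda2, which limits placental growth, had 33.8 to 45.9 against 14.2 to 16.7 (1.30 ± 0.08 SE, adjusted p = 7.9e-08). At day 25, 5 of 7 were called higher (20.7% of all genes) and 1 lower (Cd81; 25.3%). At day 38, where Ascl2 was called lower, 5 of 7 were higher (34.6%) and 0 lower (25.2%). In iPSCs 3 of 7 were called higher (Igf2, H19 and Phlda2; 5.00% of all genes). H19 had 917 in OSKM-iPSC clone 3 and 337 in clone 1, against 44.5 and 16.1 in 2iL-iPSCs, and MEF cells had 1696 to 2222. MEF cells had 0.680 of Phlda2 in both libraries. Fibroblast markers summed to 17.6 to 28.5 in OSKM-ESCs, 3.46 to 5.72 in 2iL-ESCs and 1116 to 1272 in MEF cells. Over these groups they moved with Igf2 and H19. In the OSKM-iPSCs the sum was 75.0 in clone 1 and 4.70 in clone 3. Igf2 had 62.2 and 21.7 in these clones, while H19 ran the other way. The part of fibroblasts in the levels of Igf2 and H19 was not tested.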

How the data were processed

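RNA-Seq of 18 libraries in 9 conditions was analysed. The authors used STAR (version 2.7.1a) on GRCm38, filtered for uniquely mapped reads and obtained FPKM with StringTie (version 2.0). The deposited FPKM is the measure used here. The deposited coverage, a signal without normalization, served only to compare depth. St13 and U2surp had a failed value and were left out, and 11 repeated gene identifiers were summed. The study ran Cuffdiff (version 2.2.1) on reads, which cannot be run on FPKM. In its place limma 3.58.1 (R 4.3.3; lmFit, eBayes with a trend) was applied to log2(FPKM + 1) of the groups compared, and day entered as a covariate where days were pooled. The scripts were tested on simulated data. Other steps used Python 3.11.15, numpy 2.4.6 and pandas 2.3.3. Positions and overlaps came from GENCODE M21, with the coordinates of the files for 54809 of 55142 genes found there. The regulators and lists were chosen with earlier results of these data known. Named genes were all 9 regulators, at most 4 called genes per list with the largest differences over all days, and 3 most similar genes per regulator; others are said to be chosen after their values were seen. Alternatives were a pseudocount of 0.1, other filters, median-ratio scaling, quantile normalization, TPM, no trend, a single fit of 9 conditions, the cutoff of the study, a replicate block and each library left out. Leaving out a day was added after seeing the data.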

Additional observations from a re-analysis of the deposited data

Results flagged for a closer look

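Dixon's test at the 95% level was run on the 6 OSKM-ESC and the 6 2iL-ESC libraries of each regulator. It set 3 values apart from the others, all in 2iL-ESCs. Tfap2a had 1.14 FPKM (1.1446) in 2iL-ESC day 25 replicate 2, Elf5 had 0.0625 in the same library, and Hand1 had 0.0224 in 2iL-ESC day 18 replicate 1. Chance gives about 1 such value in 20 groups of like libraries, a rate that need not hold here because the 6 libraries span days. The levels of Elf5 and Hand1 are near 0. For Hand1, 5 of the 6 values are 0, so any other value would have been flagged.

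The difference between OSKM-ESCs and 2iL-ESCs changed with day for all 6 regulators tested, by the interaction of medium and day in limma. That interaction was called for 37.9% of all genes tested. The adjusted p was 8.4e-06 for Elf3, 0.00012 for Ets2, 0.00032 for Tead4, 0.0017 for Gata2, 0.0043 for Ascl2 and 0.048 for Tfap2a. The interaction of medium and cell type also passed the threshold for Hand1 (adjusted p = 0.0016), Elf3 (adjusted p = 0.023) and Gata3 (adjusted p = 0.038), in limma over ESCs and iPSCs. In that fit 14.2% of all genes passed it. Hand1 and Gata3 passed the filter of this fit only through the OSKM-iPSC clones, where they are high, so their values are a description.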

How the results depend on the processing

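Over all days, the count of regulators called higher was 1 (29.5% of all genes tested). It was 0 with no filter on low values (16.8% of all genes tested in that setting). With the cutoff of the study (fold over 2, unadjusted p under 0.05) it was also 0 (13.6%). Without day 18 it was 0 (26.1%) and without day 25 it was 2 (32.6%). The family relatives called went from 5 (53.8% of all genes) to 8 with no filter (30.6%) and to 8 without day 25 (54.6%). The log2 difference over all days turned to -0.21 for Gata2 without day 18, and to 0.293 for Tead4 and 0.002 for Tfap2a without day 25. At day 18, 4 called higher (25.7% of all genes) became 0 with no filter (12.3%). They became 2 in a single fit of all 9 conditions (26.3%). The cutoff of the study left 2 higher (14.8%) and took the 1 called lower (17.7%) to 0 (9.6%). At day 25, 1 called higher (20.7%) became 0 in the single fit (20.1%). At day 38, 2 called lower (25.2%) became 1 with no filter (14.1%), TPM (22.0%), the single fit (17.8%) or the study's cutoff (10.0%). Tead4 turned to -0.05 on that day with quantile normalization. In iPSCs, 0 called higher (5.0%) became 1 with a pseudocount of 0.1 (5.1%), the filter of 2 libraries (7.2%) and no trend (4.4%). The count became 4 in the single fit (27.8%) and 3 with the cutoff of the study (11.5%). There, with no filter, 0 genes were called in each list (0 of 25331 genes in all). The single fit called 9 of the trophectoderm, 13 of the Hippo, 5 of the family and 6 of the Ascl2 neighbour genes, and 45% of all genes. Quantile normalization called 1 Hippo and 0 family genes (6.4% of all genes), and the cutoff of the study 5 and 3 (17.8%). Against MEF, the 1 called lower in OSKM-iPSCs (26.4%) became 0 with that cutoff (21.3%). The 5 that changed with day in OSKM-ESCs became 3 in the single fit, and the 3 of the medium and cell type interaction became 1 with no filter. The cause was not tested.

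Same-numbered cultures of a day are not stated to be paired. The correlation of their deviations from the group means was 0.21 at day 18, 0.216 at day 25 and -0.029 at day 38. Whether they share a batch was not tested, and the main fits leave the number out. With the replicate block, 0 regulators were called higher over all days (Ets2 had an adjusted p of 0.089, limma) and 1 lower at day 38.

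Without single libraries, the count called higher ranged from 0 to 1 over all days, 0 to 3 at day 18 and 0 to 1 at day 25, and that called lower at day 38 from 1 to 2. In iPSCs the counts ranged from 0 to 2 higher and 0 to 1 lower. Against MEF they ranged from 0 to 5 higher and 0 to 2 lower in OSKM-iPSCs, and from 1 to 3 higher and 0 to 3 lower in 2iL-iPSCs. The medium and cell type interaction ranged from 1 to 4. The iPSC list counts ranged from 0 to 5 (trophectoderm), 0 to 6 (Hippo), 0 to 3 (family) and 0 to 3 (Ascl2 neighbours). The log2 difference in iPSCs ranged from -1.10 to 0.196 for Elf3, -0.072 to 0.88 for Gata2 and -0.639 to 0.394 for Tead4, and at day 38 from -0.006 to 0.117 for Tead4. With 2 libraries per group, the lone library left is assumed to vary like the other group. Counts from such fits cannot decide a call. In the iPSC and MEF comparisons, the number of all genes called also moved with the library left out. Of 502 values for single regulators under the alternatives, 424 kept their direction and their side of the threshold, 52 lost a call, 18 gained one and 8 changed sign. The files used hold no counts, so the limit that depth sets on the low regulators is unknown.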
